A study of Mus musculus with 4 samples.

Results

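The 9 genes described here encode antagonists of bone morphogenetic proteins (BMPs) and activins: follistatin (Fst), its relatives Fstl1 and Fstl3, gremlin 1 (Grem1), noggin (Nog), chordin (Chrd), the matricellular proteins Smoc1 and Smoc2, and Bambi. They were chosen by gene symbol, with the row of highest mean log2 intensity to be taken where a gene had several. Each had 1 row in the table, so no measured value decided which row was used. The list itself was drawn up with earlier results of these arrays known, so its members are no independent sample of genes, and their counts are a description. All 9 were measured, among 22180 genes in all.

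BMPs, activins and myostatin are secreted ligands of the TGF-beta family. They bind pairs of serine/threonine kinase receptors, which phosphorylate Smad proteins, and the Smads enter the nucleus to change transcription. Outside the cell, antagonists bind the ligands and keep them from their receptors, and in connective tissue their amount sets how far a ligand reaches. Follistatin and Fstl3 hold activins tightly, whereas gremlin, noggin and chordin bind BMPs. Bambi differs from the rest: it is a membrane protein, a receptor-like decoy without a kinase domain, and is not secreted.

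Total RNA of mouse fibroblasts was hybridised, 1 sample per array, to 4 Affymetrix arrays of the type Mouse Gene 2.0 ST. Samples came from wild-type mice (WT, 2 biological replicates) and from mice labelled Zip13KO, a Zip13-/- knockout by the study's design text (2 biological replicates). Zip13, the product of Slc39a13, is a zinc transporter, and the study's stated interest was zinc balance and the structure of the Golgi. The labels and design text used here do not state strain, age, sex or the fibroblasts' tissue of origin, and nothing says whether replicates came from separate animals. The p-values therefore rest only on how far these particular samples spread, in large part as estimated over all genes together. Part of that spread may be technical.

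The table's log2 intensities had a median of 6.58 over all rows, and values near it are dim. Of the 14 fibroblast markers, 12 lay above that median on all 4 arrays, while Lum and Fap lay at or below it. Also above it on all 4 arrays were 4 of 5 epithelial, 4 of 5 mesothelial, 2 of 5 endothelial and 2 of 6 immune markers. Lying above that median therefore does not tell cell types apart. Slc39a13 itself read 8.94 and 8.85 in WT and 8.89 and 8.98 on the Zip13KO arrays. Where its probes lie with respect to the altered stretch of the gene is unknown, so its level does not check the labels. Of the fibroblast markers, 7 fell and 1 rose between WT and Zip13KO. By the same test, described below, 10.1% of all genes fell, 7.00% rose and 17.1% were called in all. The marker counts here stand beside those shares. Markers of other cell types also differed between the groups. Among immune markers 1 rose and 2 fell. In the chondrocyte and osteoblast list 1 rose, as did 1 Schwann marker, and 1 adipocyte marker fell. No epithelial or endothelial marker passed. The summed intensity of 5 smooth muscle markers was 9000.0 to 9448.6 in WT and 2700.1 to 2735.7 in Zip13KO, with Acta2, Tagln and Cnn1 lower, Myh11 and Des not passing, and Des at or below the median of all rows. Most of that sum was Acta2 and Tagln, which read 6786 and 2251 on the first WT array. That of 5 mesothelial markers was 686.2 to 687.9 in WT and 1857.8 to 1904.9 in Zip13KO, where Msln rose and the other 4 did not pass. The part of any of these cell types in the results was not tested. In bulk RNA, fewer cells of a type and less RNA per cell cannot be told apart.

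Promoters are shown as context for the members that passed the test, since antagonist genes are known to be controlled by the signals they restrain. The table of RefSeq promoters (build GRCm38.p6) held 4 of the 9 members: Grem1, Fstl3, Fstl1 and Chrd. Fst, Nog, Smoc1, Smoc2 and Bambi were not among its entries. The 250 bases before the start are given 5′ to 3′ on the gene's strand for the 3 that passed the test. They lie at chr2:113758649-113758898 on the minus strand for Grem1, at chr10:79777024-79777273 on the plus strand for Fstl3 and at chr16:37776805-37777054 on the plus strand for Fstl1. Capitals mark matches, on either strand, to these letters: the core of a BMP response element (GGCGCC), a palindromic Smad site (GTCTAGAC), the core of the metal response element in its first form (TGCACNC) and in its other form (TGCGCNC), the TATA box (TATAAA) and the GC box (GGGCGG). Neighbouring matches can run together or overlap.
Grem1: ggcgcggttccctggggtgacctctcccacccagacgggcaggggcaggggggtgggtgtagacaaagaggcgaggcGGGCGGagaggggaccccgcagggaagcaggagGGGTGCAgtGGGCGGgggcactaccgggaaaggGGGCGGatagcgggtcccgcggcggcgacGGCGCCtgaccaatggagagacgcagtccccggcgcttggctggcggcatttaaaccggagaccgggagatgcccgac
Fstl3: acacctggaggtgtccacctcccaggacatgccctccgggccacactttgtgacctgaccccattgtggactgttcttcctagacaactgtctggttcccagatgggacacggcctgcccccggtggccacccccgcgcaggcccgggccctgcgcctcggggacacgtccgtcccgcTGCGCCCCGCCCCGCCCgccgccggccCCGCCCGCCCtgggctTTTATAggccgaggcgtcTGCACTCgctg
Fstl1: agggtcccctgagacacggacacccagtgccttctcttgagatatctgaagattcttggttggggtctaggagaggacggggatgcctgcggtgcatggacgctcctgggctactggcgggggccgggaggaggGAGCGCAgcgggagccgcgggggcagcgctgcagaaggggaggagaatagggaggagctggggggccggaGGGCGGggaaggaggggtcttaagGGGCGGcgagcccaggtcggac

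Grem1 held a BMP response element core at position -78 from the start, a match to the metal response core and 3 GC boxes. Fstl3 held 2 metal response cores, 4 GC boxes and, at position -29, a TATA box match that reads on the strand opposite the gene (TTTATA). In Fstl1 there were 1 metal response core and 2 GC boxes, and in Chrd 1 BMP response element core and 4 GC boxes. No palindromic Smad site was found in these 4 windows. Of 32851 promoters of the same length, 9.59% held the BMP core, 21.4% the metal response core, 12.4% a TATA box, 32.7% a GC box and 0.167% the Smad palindrome. All 3 printed promoters were rich in G and C (72.0% in Grem1, 71.2% in Fstl3 and 68.0% in Fstl1, against a median of 52.4% over all promoters). A match describes letters and is not a bound site.

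On the arrays labelled Zip13KO, the activin-binding antagonists Fst and Fstl3 and the BMP antagonist Grem1 rose, Fstl1 and Smoc2 fell, and Nog, Chrd, Smoc1 and Bambi did not pass the test. The test was limma's moderated fit over all 22180 genes with Benjamini-Hochberg adjustment, and a gene passed at an adjusted p under 0.05. By that rule 3 of 9 members rose, where 7.00% of all genes did, and 2 fell, where 10.1% did. Together 5 of 9 were called against 17.1% of all genes. The arrays of the groups did not overlap for 7 of 9, a state found for 51.5% of all genes. The median difference of the 9 was -0.02 log2 units, beside -0.0034 over all genes, since the members moved in opposite directions. These shares describe a list made with such results in view, and nothing is read from them beyond the counts.

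**Figure D1:**
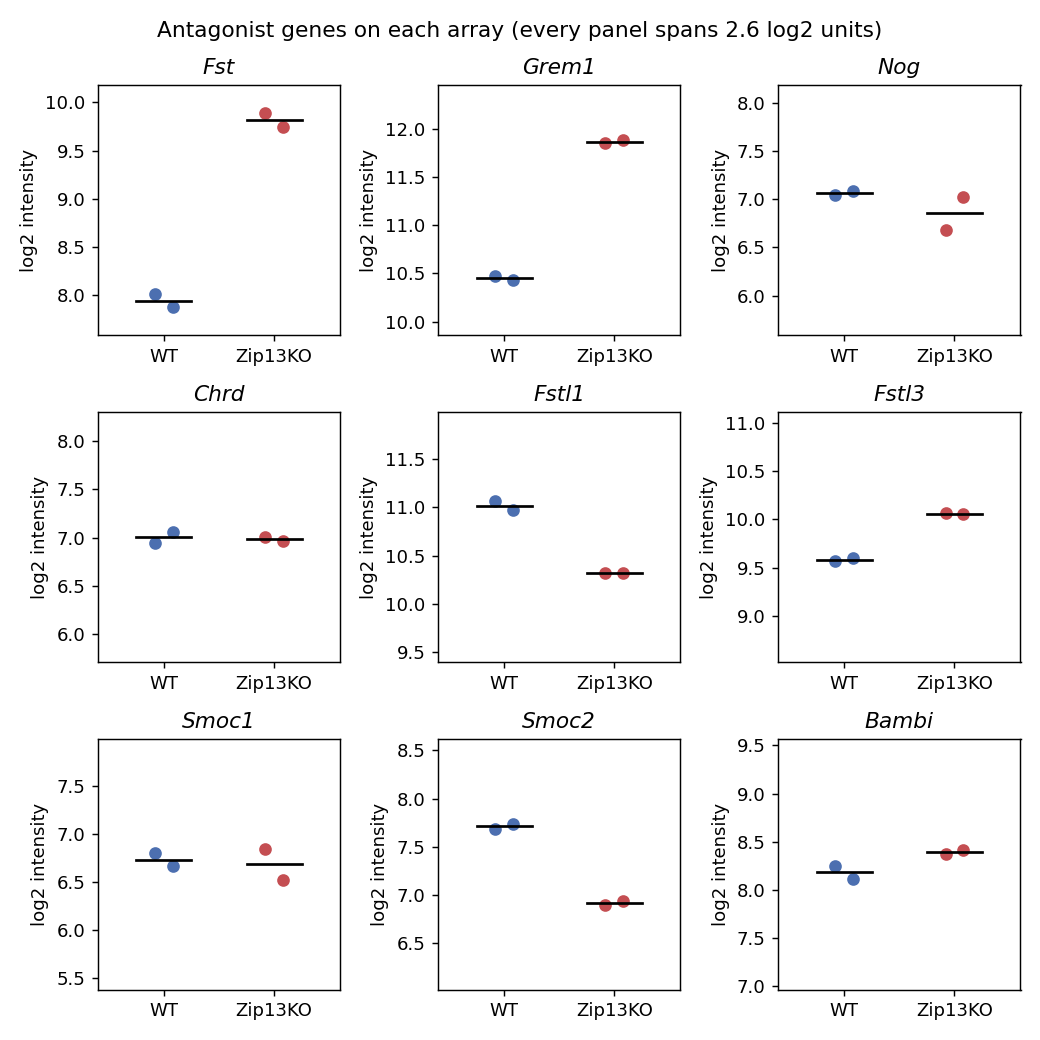
Log2 intensity (vertical axis, each panel spanning the same range) of each of the 9 antagonist genes in WT and Zip13KO. Points are single arrays (2 per group) and lines are group means. Fst, Grem1 and Fstl3 sit higher in Zip13KO and Fstl1 and Smoc2 lower, each without overlap, while the arrays of Chrd and Smoc1 overlap.

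Fst encodes follistatin, which wraps around activin and blocks both of its receptor faces, and which also binds myostatin. Its log2 intensity was 8.01 and 7.87 on the WT arrays and 9.89 and 9.75 on the Zip13KO arrays. Both Zip13KO arrays stood far above both WT arrays, with a gap of 1.74 between the groups, beside 0.14 within WT and 0.15 within Zip13KO. The rise was 1.88 log2 units (SE 0.08), or 3.68-fold with a 95% interval of 3.27 to 4.13 (limma adjusted p = 8.58e-12). Among the 1552 genes that rose, it ranked 21 by size.

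Fstl3 is the closest relative of follistatin, binds activins in a similar way and is found in the nucleus as well as outside the cell. It read 9.57 and 9.60 in WT and 10.06 and 10.06 in Zip13KO, so the arrays of a group were almost equal and the groups were apart. The rise was 0.48 log2 units (SE 0.07), or 1.39-fold with an interval of 1.26 to 1.54 (adjusted p = 4.74e-05). The 95% intervals were 1.71 to 2.05 log2 units for Fst and 0.33 to 0.62 for Fstl3, and the difference between them was not itself tested.

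Grem1 encodes gremlin 1, a cystine-knot protein of the DAN family that binds BMPs and is known from limb mesenchyme, bone and fibrotic tissue. It read 10.48 and 10.43 in WT and 11.85 and 11.88 in Zip13KO. The replicates of each group lay within 0.05 of each other, and the groups were separated by 1.38. The rise was 1.42 log2 units (SE 0.06), 2.67-fold with an interval of 2.44 to 2.92 (adjusted p = 9.59e-12), rank 39 among the genes that rose. In linear intensity, Grem1 went from 1425 and 1378 to 3698 and 3781. Grem1 lies on chromosome 2, as does Slc39a13, with 154 protein-coding genes between them in the RefSeq order.

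Nog and Chrd, the other classical BMP antagonists, did not pass the test. Both were dim, near the level of the epithelial marker Cdh1 (7.22 and 7.07 in WT, 7.13 and 7.21 in Zip13KO). Whether either gene was expressed in these samples cannot be told from such levels. Noggin, a small dimer that covers the receptor-binding faces of BMPs, read 7.05 and 7.09 in WT and 6.68 and 7.02 in Zip13KO. Its groups were apart by only 0.02, while the Zip13KO arrays differed from each other by 0.34. The difference of -0.21 (95% interval -0.42 to -0.01) did not pass (adjusted p = 0.173). Without Zip13KO replicate 2 it was -0.38 and passed (adjusted p = 0.00374), and without Zip13KO replicate 1 it was -0.05 (adjusted p = 0.883), so the value of Nog rests on which of these arrays is used. Chordin, which holds BMPs until tolloid proteases cut it, read 6.94 and 7.06 in WT and 7.01 and 6.97 in Zip13KO. Its arrays were interleaved, and the difference was -0.02 (95% interval -0.19 to 0.16, adjusted p = 0.951). As a ratio of Zip13KO to WT, the interval ran from 0.88 to 1.12.

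Fstl1 is a secreted glycoprotein with a follistatin-like domain that does not bind activin as follistatin does and has been linked to BMP signalling in the lung and elsewhere. It read 11.07 and 10.97 in WT and 10.31 and 10.32 in Zip13KO, with every Zip13KO array below every WT array. It fell by 0.70 log2 units (SE 0.06), which is 1.63-fold lower (adjusted p = 2.81e-07). Its direction was thus opposite to that of Fst and Fstl3, with which it shares a name and a domain.

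Smoc1 and Smoc2 are calcium-binding matrix proteins related to SPARC, and Smoc proteins limit BMP signals in developing tissue. Smoc2 read 7.68 and 7.74 in WT and 6.90 and 6.93 in Zip13KO. Both groups were tight and stood 0.75 apart, and the gene fell by 0.80 log2 units (SE 0.08), 1.74-fold (adjusted p = 7.16e-07). Smoc1 read 6.80 and 6.66 in WT and 6.84 and 6.52 in Zip13KO, close to the median of all rows. Its Zip13KO arrays enclosed the WT arrays, and the difference was -0.05 (95% interval -0.26 to 0.16, adjusted p = 0.847). Whether the difference of Smoc1 differs from that of Smoc2 was not tested.

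Bambi read 8.25 and 8.12 in WT and 8.38 and 8.41 in Zip13KO. All Zip13KO values were above the WT values, by 0.13, about as much as the WT arrays differed from each other. The difference of 0.21 (95% interval 0.05 to 0.38) did not pass (adjusted p = 0.0767). Over the 14 alternatives it ran from 0.15 to 0.28 and passed in 2 of them, after a further quantile normalization (0.23, adjusted p = 0.0325) and with crossed replicate numbers as a block (adjusted p = 0.011). Without WT replicate 2 it was 0.15 (adjusted p = 0.456).

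**Figure D2:**
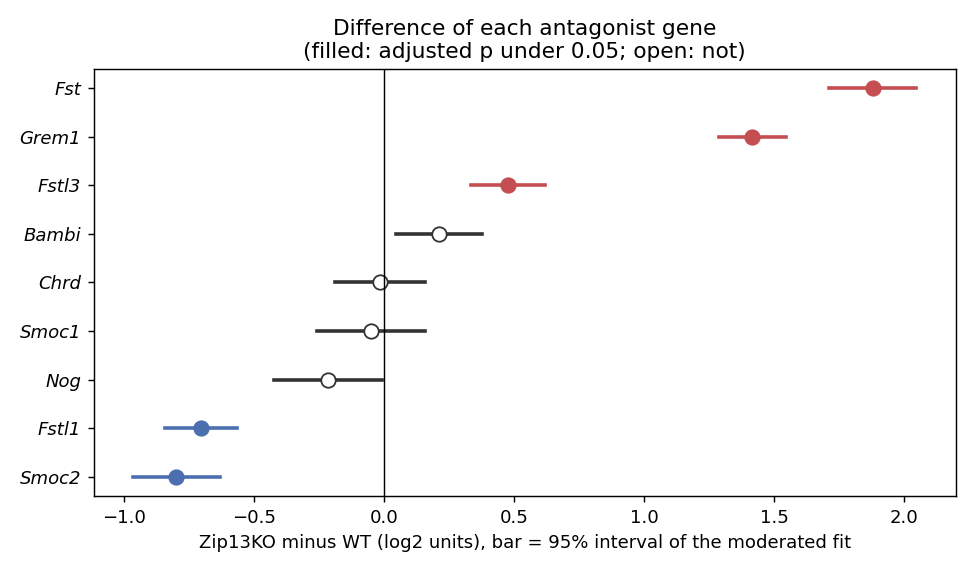
Difference between Zip13KO and WT in log2 units (horizontal axis) for each antagonist gene, with the 95% interval of the moderated fit (2 arrays per group). Red rose and blue fell past the threshold, and open points did not pass. The order runs from Smoc2 at -0.80 to Fst at 1.88.

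Among the ligands that these antagonists bind, the activin A subunit differed most. Inhba, whose product pairs with itself to form activin A, read 10.68 and 10.72 in WT and 8.82 and 8.73 in Zip13KO. It fell by 1.92 log2 units (SE 0.07), 3.79-fold lower with no overlap (adjusted p = 9.21e-13). Fst, the antagonist of activin, was thus higher on the arrays on which the activin subunit was lower, at differences of 1.88 and -1.92. Of the 10 measured genes for activins, myostatin and other GDFs, Inhba and Gdf11 fell and none rose in limma (3 of the 10 had an unadjusted p under 0.05). These 2 calls of 10 are near the 17.1% called among all genes, and the counts of the gene lists that follow stand beside the same share. Gdf11, a ligand close to myostatin that follistatin also binds, read 8.52 and 8.52 in WT and 8.16 and 8.28 in Zip13KO, and fell by 0.30 (SE 0.08, adjusted p = 0.0102). Its call was lost without Zip13KO replicate 1 (-0.24, adjusted p = 0.0927) and with all rows of the table tested (adjusted p = 0.087). Mstn itself was dim, between 5.51 and 5.61 on the 4 arrays, and the median difference of the 10 was -0.01.

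**Figure D3:**
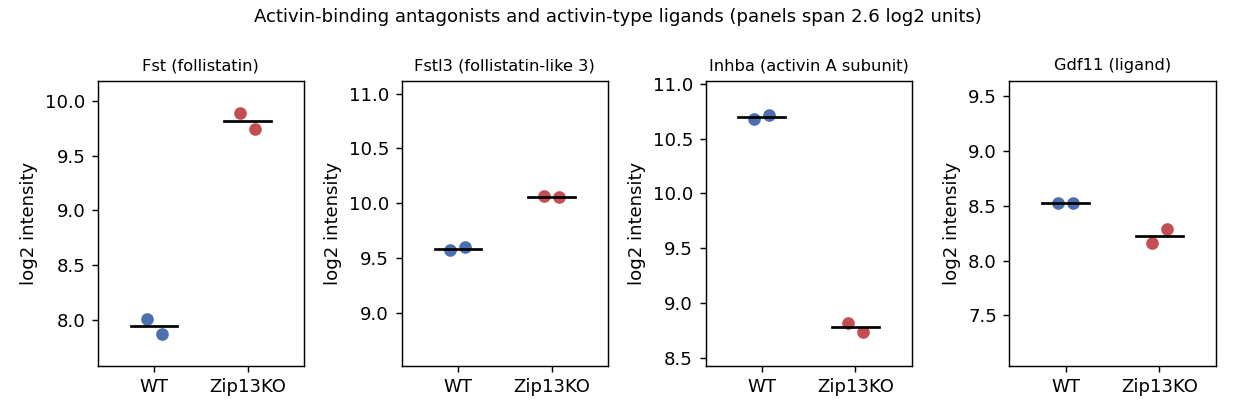
Log2 intensity (vertical axes, panels of equal span) of the activin-binding antagonists Fst and Fstl3 and of the ligand genes Inhba and Gdf11 on single arrays (points, 2 per group; lines are means). Fst and Fstl3 are higher in Zip13KO, Inhba falls from 10.70 to 8.78 and Gdf11 from 8.52 to 8.22.

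Among 14 BMP ligand genes, Bmp4 fell and none rose in limma, and the others had an unadjusted p above 0.05. Bmp4, a main target of gremlin and noggin, read 7.16 and 7.22 in WT and 6.96 and 6.85 in Zip13KO, a difference of -0.29 (SE 0.08, adjusted p = 0.0195). Its call was lost when WT replicate 2 was left out (-0.26, adjusted p = 0.109), likewise for Zip13KO replicate 2 (-0.23, adjusted p = 0.131), and with all rows tested (adjusted p = 0.116). Only 5 of the 14 lay above the median of all rows on all 4 arrays, so most BMP ligand genes were dim here, and the median difference was 0.03. Bmp4 lay above that median but was dim too, beside 7.07 to 7.22 over the 4 arrays for the epithelial marker Cdh1. Differences of the BMP ligands ran from -0.29 to 0.12, while the BMP antagonist Grem1 rose by 1.42.

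Of 18 other antagonists measured, 5 fell and 2 rose, with a median difference of 0.03. Crim1, a transmembrane protein whose outer part tethers BMPs, fell by 1.14 log2 units (SE 0.08), from 10.64 and 10.57 to 9.35 and 9.58. Bmper, which binds BMPs through chordin-like repeats, fell by 1.07 (SE 0.08), and Nbl1, a DAN family member like gremlin, fell by 0.67. Chrdl1, a chordin-like antagonist, rose by 0.37 (SE 0.09, adjusted p = 0.00454), though its WT arrays were dim at 6.12 and 6.30, and its call was lost when WT replicate 1 was left out (adjusted p = 0.0734) and with all rows tested (adjusted p = 0.0905). The list held 7 calls in all, and 4 without WT replicate 1.

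Receptors and co-receptors changed in both directions. Of 15 measured, 4 rose and 3 fell, with differences from -0.45 to 0.53 and a median of 0.03. Rgmb, a co-receptor that presents BMPs, rose by 0.53 (SE 0.07), and Neo1, the receptor neogenin to which such co-receptors bind, rose by 0.42. Bmpr1b, a type I BMP receptor, fell by 0.45 from a dim level of 6.32 and 6.33, and Acvr1, another type I receptor, fell by 0.33 (adjusted p = 0.00546, or 0.0568 with all rows tested). The type II receptor Bmpr2 did not pass, at -0.05 (95% interval -0.19 to 0.09).

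Inside the cell, the inhibitory Smads were lower. Of 10 genes for Smads and their ubiquitin ligases, 3 fell and none rose in limma, with 5 at an unadjusted p under 0.05 and a median of -0.17. Smad7 fell by 0.69 (SE 0.08), and Smad6, an inhibitory Smad of the BMP branch, fell by 0.64, from 7.41 and 7.30 to 6.71 and 6.72. Smurf2, a ubiquitin ligase, fell by 0.27, a call that was lost without WT replicate 1 (-0.20, adjusted p = 0.185) and with all rows tested (adjusted p = 0.106). Smad1 and Smad5, which carry the BMP signal, were at -0.19 and -0.18, and neither passed.

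BMP-responsive genes were called in part. Of 17 measured, 5 fell and 1 rose, with a median of -0.08. Hey2, a transcriptional repressor, fell by 0.64, and Id3, an inhibitor of helix-loop-helix factors, fell by 0.50 (adjusted p = 0.000442, or 0.0546 with all rows tested). The transcription factor Gata2 fell by 0.37. Tbx3, another, fell by 0.35, and its call was lost when WT replicate 1 was left out (adjusted p = 0.0934) and with all rows tested (adjusted p = 0.0773). Id1, the usual read-out of BMP signalling, read 9.38 and 9.21 in WT and 9.26 and 9.18 in Zip13KO, with overlapping groups and a difference of -0.07 (95% interval -0.23 to 0.09, adjusted p = 0.671). The list held 6 calls, and 3 without WT replicate 1.

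Of 11 activin- and TGF-beta-responsive genes measured, 8 fell and 2 rose, with a median of -0.81 log2 units. Like the other lists, this one was chosen with earlier results of these data known, so its counts and median are a description. Postn, which encodes the matrix protein periostin, fell by 3.68, and Acta2, smooth muscle actin, fell by 2.08. Ccn2, a matricellular growth factor, was at -1.10 (-0.62 as the mean of its rows), and Pmepa1, a feedback inhibitor of the pathway, fell by 1.08. The genes that rose were Tgif1 (0.32) and Tgfbi (0.25). Acta2 is one of the smooth muscle markers whose summed intensity was at least 9000.0 in WT and at most 2735.7 in Zip13KO, and Col1a1 is one of the fibroblast markers, of which 7 fell and 1 rose. Their part in the result was not tested.

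**Figure D4:**
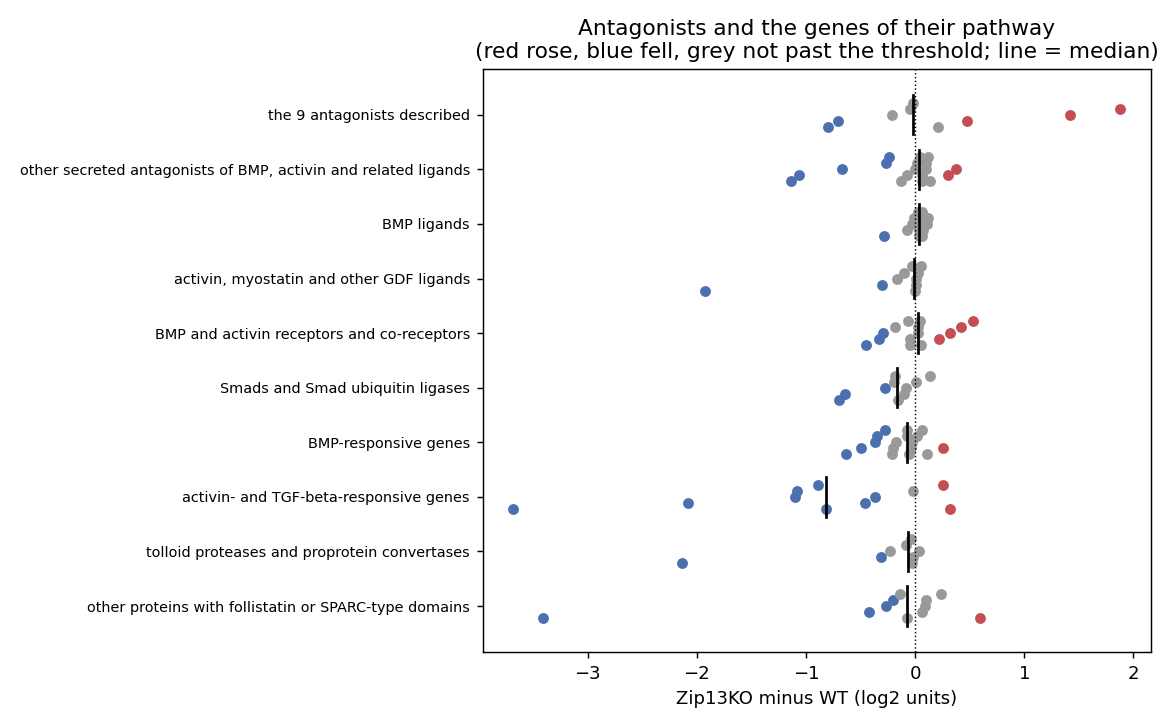
Difference between Zip13KO and WT (horizontal axis, log2 units) of the 9 antagonists and of 9 lists of related genes, 1 point per gene. Red rose, blue fell, grey did not pass, and black lines are medians. Antagonists and lists were chosen with earlier results of these data known. The antagonists spread from -0.80 to 1.88, BMP ligands stay between -0.29 and 0.12, and the median of activin- and TGF-beta-responsive genes is -0.81.

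Proteases that act on this system, and relatives of the follistatin fold, were described last. Tll1, a tolloid protease that cuts chordin, read 9.42 and 9.45 in WT and 7.21 and 7.39 in Zip13KO and fell by 2.13 (SE 0.08, 4.39-fold). Bmp1, the other main tolloid protease of connective tissue, was at -0.03 (95% interval -0.21 to 0.15) and did not pass, as Chrd itself did not. Furin, which cleaves ligand precursors, fell by 0.31, a call lost when WT replicate 1 was left out (adjusted p = 0.0812) and with all rows tested (adjusted p = 0.0772). Of 8 such genes, 2 fell and none rose in limma, with 3 at an unadjusted p under 0.05, where 10.1% of all genes fell and 17.1% were called. Of 11 other genes with follistatin or SPARC-type domains, 4 fell and 1 rose. Igfbp7 fell by 3.41, Tmeff1 was at -0.42 (-0.21 as the mean of its rows, adjusted p = 0.0834) and Spock3 fell by 0.26, while Agrn, the proteoglycan agrin, rose by 0.59. Spock3 was dim, and its call was lost without either WT array, without Zip13KO replicate 1 and with all rows tested (adjusted p = 0.0809 to 0.325).

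The protein-coding genes on either side of Fst in the RefSeq order, Ndufs4 and Mocs2, were at -0.18 and -0.38, and only Mocs2 passed (adjusted p = 0.00259, or 0.0612 with all rows tested), in the direction opposite to Fst. Fmn1, which encodes formin 1 and whose locus is known to hold limb enhancers of Grem1, read 8.58 and 8.43 in WT and 7.20 and 7.40 in Zip13KO with a difference of -1.21 (SE 0.09, adjusted p = 1.05e-08), or -0.66 as the mean of its rows. Grem1 thus rose where its neighbour Fmn1 fell, and its neighbour on the other side, Scg5, was dim and at -0.01. Thbs2, a thrombospondin beside Smoc2, fell by 2.06, in the same direction as Smoc2 at -0.80, while Dact2 on the other side was at -0.12 and did not pass. The measured neighbours of Nog, Fstl3, Smoc1 and Bambi (Gm525, Ankfn1, Rnf126, Prss57, Slc10a1, Slc8a3, Cul2 and Lyzl1) did not pass. Those of Chrd and Fstl1 were not analysed here.

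Profiles most like those of the members with a difference of at least 1 log2 unit were sought by Euclidean distance over the 4 arrays. Log2 values were first centred on each gene's mean. The search covered 12525 other protein-coding genes, without predicted-gene and RIKEN names. Each had a mean above the median of all rows in at least 1 group, so a gene bright in only 1 group could enter. With 4 arrays such likeness is mostly the group difference. Nearest to Fst were Arhgdib (distance 0.12, difference 1.98), Bst2 (0.14, 1.88) and Ripk3 (0.17, 1.75). Nearest to Grem1 were Dhrs9 (0.06, 1.43), Ptpre (0.06, 1.44) and Ifit1 (0.09, 1.40). Dhrs9 (6.36 and 6.38) and Ifit1 (6.41 and 6.32) were dim in WT, below that median, and entered the search only through their Zip13KO values.

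The calls of the 5 members that passed held under every alternative run, 14 in all, which included each array left out in turn. Over these, Fst ranged from 1.81 to 1.95, Grem1 from 1.39 to 1.44, Fstl3 from 0.46 to 0.51, Fstl1 from -0.75 to -0.65 and Smoc2 from -0.82 to -0.72 log2 units. The largest adjusted p among them was 0.0109, for Fstl3 with all rows of the table tested. Several settings could not move a difference. Each member had 1 row, all 9 passed the filter on low values, and the blocks and other variance models change only the error. Fits with a block or an array left out also had fewer residual degrees of freedom. With the replicate block the limma adjusted p of Fst was 8.35e-76, against 8.58e-12 as reported, so that setting was no stricter check. Differences of Chrd and Smoc1 changed sign when single arrays were left out, and neither passed in any of the alternatives.

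**Figure D5:**
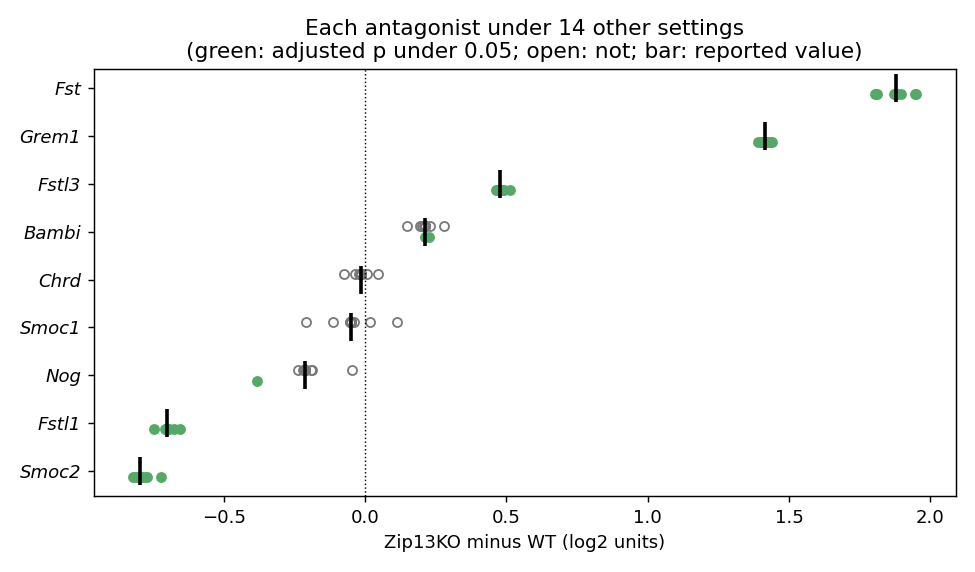
Difference between Zip13KO and WT (horizontal axis, log2 units) of each antagonist gene under 14 other settings (points) beside the reported value (black bar). Green points had an adjusted p under 0.05 and open points did not. Fst, Grem1, Fstl3, Fstl1 and Smoc2 are green throughout, Bambi and Nog pass in some settings, and Chrd and Smoc1 in none.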

How the data were processed

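The deposited table gives 1 intensity per row and array on a linear scale, from 21.8 to 10826. The submitters' processing notes name Affymetrix Expression Console and RMA (background correction, normalization between arrays, probe summary) without versions, while the annotation is not given in the sources used here. Although RMA works in log2, the authors' intensity values are linear, so log2 was taken, with no pseudocount. Normalization between arrays hides a change shared by most genes, and dim genes show compressed differences. Array medians were 94.5 to 96.1, and the number of arrays limits the precision.

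Rows were named from the platform annotation: of 41345 rows, 23521 had 1 symbol, 1814 several and 16010 none, and 23328 matched RefSeq GRCm38.p6 by gene ID. The brightest row per gene was kept (22180 genes, 1082 with several rows). limma 3.58.1 in R 4.3.3 (lmFit, eBayes with trend, two-sided, 2 residual and 15.1 prior degrees of freedom) was fitted to all genes, with Benjamini-Hochberg adjustment over all of them. Intervals are 95% intervals of that fit. An exact permutation of 2 arrays against 2 cannot reach the threshold. The script was tested on simulated data. Plots used matplotlib 3.10.9 in Python 3.11.15.

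Members and gene lists were chosen with earlier results of these data known. All members are named, and from each list up to 4 called genes by size of difference, or the one of smallest p where none passed. The nearest protein-coding neighbours and the 3 most similar profiles of members at 1 log2 unit or more are named too. Id1, Mstn, Bmp1, Bmpr2, Smad1, Smad5, Tgif1, Tgfbi and, as a fibroblast marker, Col1a1 fall outside that rule and were chosen after their values were seen. List genes were matched by exact symbol, and list genes without a row of their own are not analysed here.

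Replicate numbers in the labels are shared between groups. Deviations of same-numbered arrays from their group means correlated at -0.16 over genes, so the numbers were not taken to pair the samples.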

Additional observations from a re-analysis of the deposited data

How the results depend on the processing

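The settings varied were the replicate block, a filter on low values, a further quantile normalization, centring arrays on their median, 2 other variance models, the mean of a gene's rows, every row fitted, a pseudocount of 16 and each array left out. A lone array was taken to spread as the other group does. The members called were 5 with the replicate block, and 3364 genes were called then against 3786. Crossed replicate numbers, added after the data were seen, gave 5208 calls over all genes, 6 members and 5 calls among Smads (3 as reported). The fit over every row both adjusts over 41345 features and estimates another variance prior (4.08 prior degrees of freedom against 15.1). It gave 1806 calls (669 rose, 1137 fell). It left 3 of 7 calls among other antagonists, 0 of 1 among BMP ligands, 1 of 2 among activin-type ligands, 3 of 7 among receptors, 2 of 6 among BMP-responsive genes, 1 of 2 among proteases and 3 of 5 among follistatin-domain genes. With single arrays left out, these counts ran from 4 to 7 (other antagonists), 0 to 1 (BMP ligands), 1 to 2 (activin-type ligands), 3 to 6 (BMP-responsive genes), 1 to 2 (proteases) and 3 to 5 (follistatin-domain genes). Genes not past the threshold changed sign when arrays were left out: Chrd (-0.074 to 0.044), Smoc1 (-0.21 to 0.11), Scg5 (-0.044 to 0.025), Gm525 (-0.047 to 0.081), Slc10a1 (-0.049 to 0.124), Slc8a3 (-0.047 to 0.049), Lyzl1 (-0.042 to 0.028) and Slc39a13 (-0.0055 to 0.090). Slc8a3 also changed sign after median centring (-0.0052) and quantile normalization (-0.0055). The cause of these changes was not tested.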
